A study of Mus musculus with 18 samples.

Results

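The ovaries of aged mice given Samul-tang were set against the ovaries of young mice given water. Members were taken by their group labels: 6 ovaries labelled OC+SM and 6 labelled YC, which are 12 of the 18 ovaries of the series. YC mice were 8 weeks old and received distilled water. OC+SM mice were 40 weeks old and received Samul-tang, a decoction of traditional East Asian herbal medicine, by mouth at 2.5 g/kg. Water or Samul-tang was given 5 times a week over 4 weeks in every group. All were wildtype female Balb/c mice, and all were primed with pregnant mare serum gonadotropin (5 IU) and 48 hours later given human chorionic gonadotropin (hCG, 5 IU), so that every ovary was taken 16 hours after an ovulatory stimulus. RNA was taken per ovary, with 6 mice in each group. The remaining 6 ovaries, labelled OC, came from 40-week mice given water and serve below only to place the OC+SM values. OC+SM and YC differ in age and in treatment at once, and from these 12 ovaries alone the part of each cannot be told apart. Per the labels' protocols, OC and OC+SM mice were housed in shared cages behind a divider, and the sources used here name neither the cage nor the day of a mouse.

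The mouse ovary holds a fixed store of oocytes, each enclosed by granulosa cells, and the store shrinks with age. Granulosa cells feed the oocyte and turn theca-derived androgens into estrogens, while theca cells lie outside the follicle and answer hedgehog signals from granulosa cells. After the surge of luteinizing hormone, which hCG replaces, the follicle releases its oocyte and its remaining cells become the corpus luteum, which makes progesterone from cholesterol in its mitochondria. The aged ovary is known for few follicles and for macrophages laden with lipid and pigment. Early corpora lutea and ovulated follicles would be present at the time of sampling, and cumulus-enclosed oocytes would have left for the oviduct.

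Oocyte genes carried the largest shift of any list described here, and interferon-stimulated genes were among the lists that moved the other way, so promoters from those lists are printed first. The sequences are from RefSeq (build GRCm38.p6, matched by symbol), 250 bases upstream of the start site, 5′ to 3′ on the strand of the gene, with matches in capitals. For the oocyte genes Zp3, a zona pellucida glycoprotein, and Bmp15, an oocyte-secreted growth factor, the capitals mark the E-box CANNTG, which reads the same on both strands and is the core bound by basic helix-loop-helix factors. Zp3 lies on the plus strand (chr5:135979855-135980104) with matches starting at -181, -134 and -55 from the start site, and Bmp15 on the minus strand (chrX:6320725-6320974) with 1 match at -201.
Zp3: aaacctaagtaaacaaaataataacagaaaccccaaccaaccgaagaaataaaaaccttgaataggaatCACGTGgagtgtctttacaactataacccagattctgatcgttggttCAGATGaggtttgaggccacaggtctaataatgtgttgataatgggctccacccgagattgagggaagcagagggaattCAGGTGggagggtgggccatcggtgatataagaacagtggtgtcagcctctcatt
Bmp15: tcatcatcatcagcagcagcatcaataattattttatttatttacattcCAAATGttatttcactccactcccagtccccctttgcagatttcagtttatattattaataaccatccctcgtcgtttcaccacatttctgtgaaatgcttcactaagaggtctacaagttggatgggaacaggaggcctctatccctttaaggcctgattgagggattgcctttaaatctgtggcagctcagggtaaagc
For Rsad2, an antiviral enzyme, and Gbp7, a guanylate-binding protein, the capitals mark GAAA and GAAA with NN (any 2 bases) between them, or the reverse complement, the core of the interferon-stimulated response element. Rsad2 lies on the minus strand (chr12:26456453-26456702) with a match starting at -120, and Gbp7 on the plus strand (chr3:142530086-142530335) with a match starting at -53.
Rsad2: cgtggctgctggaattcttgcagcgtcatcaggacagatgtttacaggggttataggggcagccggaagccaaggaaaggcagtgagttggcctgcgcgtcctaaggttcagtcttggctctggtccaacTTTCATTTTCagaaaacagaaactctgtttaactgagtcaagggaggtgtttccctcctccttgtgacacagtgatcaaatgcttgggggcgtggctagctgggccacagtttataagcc
Gbp7: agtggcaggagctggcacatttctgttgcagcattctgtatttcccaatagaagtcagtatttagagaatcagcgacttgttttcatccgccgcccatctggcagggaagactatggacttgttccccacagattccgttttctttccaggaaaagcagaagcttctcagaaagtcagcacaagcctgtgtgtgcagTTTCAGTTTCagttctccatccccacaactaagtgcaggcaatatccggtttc
Of 39 listed oocyte genes 29 had a promoter in the table and 26 of these held CANNTG, against 66.2% of all 32851 promoters. Here and below a listed gene counted if any of its promoters matched, while the shares of all are per promoter. The 2 are therefore unlike measures. Of 26 listed interferon-stimulated genes 19 had a promoter and 9 held that element on either strand, against 2.98% of all. Among the called genes of that list with a promoter, 5 of 8 held it, namely Gbp2, Gbp7, Ifit1, Ifit3 and Rsad2. Ifit3 was no longer called without any one of OC+SM 1, 2, 3, 4 and 5 and YC 1, 3, 4, 5 and 6. In the list of class I antigen presentation 2 of 13 genes with a promoter held it, and B2m was the only called gene of these. The endoplasmic reticulum stress element is CCAAT and CCACG with 9 bases between. It occurred on either strand in 6 of 22 genes of the unfolded protein list with a promoter and in 0.113% of all promoters. None of the 7 called genes with a promoter held it. These are matches of letters, not measured binding sites.

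Expression was read by 3′ tag sequencing, and levels are in CPM, counts scaled to a common library total and corrected for library composition. A gene was called at an edgeR quasi-likelihood adjusted p under 0.05 over all 16959 genes tested, and all fold changes are log2 of OC+SM over YC unless stated, each with its standard error (SE) from that model. Most genes are named by a rule given with the methods; Apoe, Arntl, B2m, C2, C4b, Cdk1, Cdkn1a, Fdxr, Gja4, Hsd17b1, Hspa5, Ihh, Kit, Mki67, Msmo1, Nfe2l2, Nr0b1, Oas1d, Pdgfrb, Pdia3, Pdia4, Prox1, Ptgs2, Sc5d, Smo, Srd5a1, Tnfaip6, Trem2, Uqcrc2, Wnt4, the C1q chains and the mt-Nd2, mt-Nd5 and mt-Atp8 decreases were chosen after their values were seen. Of these genes 3795 were called, or 22.4%, with 1954 higher in OC+SM (11.5%) and 1841 lower (10.9%). Changes of at least 2-fold were mostly decreases, 437 against 148 increases. In 1570 of the called genes every OC+SM ovary lay on 1 side of every YC ovary, and among all genes tested such separation occurred in 9.5%. With OC+SM 1, 2 and 3 left out, and so with 3 treated ovaries in place of 6, 1851 genes were called, 983 higher and 868 lower, of which 1655 were among the 3795. Genes called higher were shorter (median length 1651 bases) than genes called lower (2683 bases; 2194 over all tested), and with a fitted trend on length removed the split became 2584 higher and 1357 lower. On the deposited TPM values, with limma on log2(TPM + 1), it was 1365 higher and 2010 lower. Those values were used without the correction for library composition, and their median change over all genes was -0.03, against 0.00 as reported. The part of length or of that correction in the calls was not tested.

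**Figure D1:**
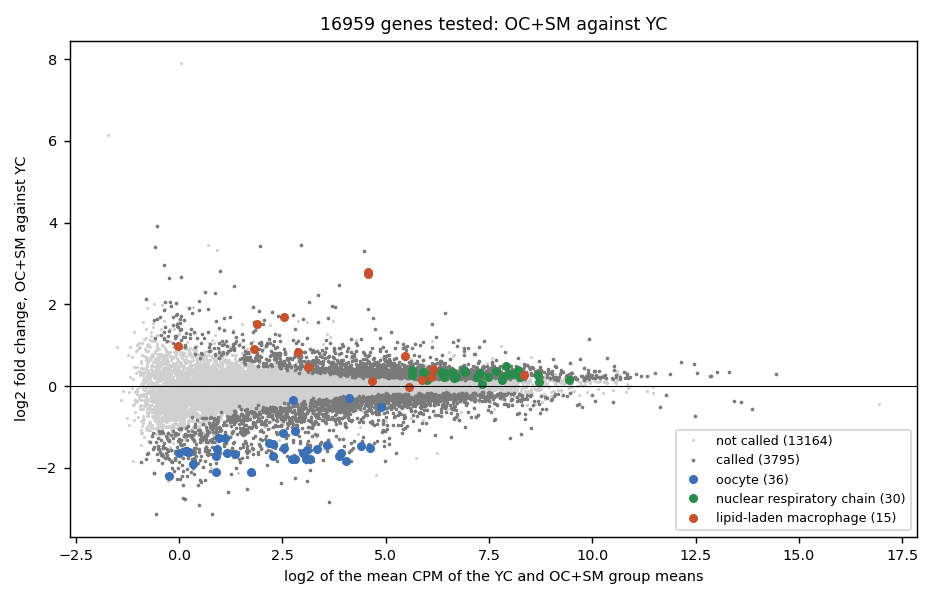
Each point is 1 of 16959 genes, with the log2 of its mean CPM over the YC and OC+SM group means on the horizontal axis and its log2 fold change, OC+SM against YC, on the vertical axis. Dark points are the 3795 called genes; 34 of 36 oocyte genes tested (blue) sit below 0 among them, while 24 of 30 respiratory chain genes (green) are called at small positive values.

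The libraries themselves differed between the groups. OC+SM libraries held 14200654 to 20354213 counts and YC libraries 9049175 to 14147370 (exact permutation p = 0.00216, two-sided, adjusted p = 0.00361 over 5 measures; 0.00216 is the smallest p that 6 against 6 allows). The share of counts of ENSMUSG00000119584, the most abundant gene, was 10.7 ± 3.13% in OC+SM and 14.5 ± 1.43% in YC (SD, n = 6; exact permutation adjusted p = 0.0271). It was lowest in OC+SM 1, 2 and 3, at 6.20% to 10.2%. Mitochondrial ribosomal RNA took 1.64 ± 0.412% against 2.53 ± 0.266% (SD, n = 6; exact permutation adjusted p = 0.00361). OC+SM 6 and YC 3 correlated least with their own groups (0.973 and 0.974, mean over the other 5 libraries), and without this pair 1854 genes were called higher and 1739 lower. How these measures bear on the gene results was not tested beyond the fits without those libraries. All p-values measure the spread between mice, each mouse being 1 sample.

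Oocyte transcripts were lower nearly throughout the list. Of 36 tested members of the oocyte list (39 listed), 34 fell and 0 rose, with a median of -1.60. Over all genes tested 10.9% fell, 11.5% rose and the median was 0.00. In 28 of the 36 every OC+SM ovary lay below every YC ovary. Among all genes tested, 9.5% were separated so in either direction. Gdf9, the growth factor by which the oocyte acts on granulosa cells, ran from 21.9 to 36.7 CPM (median 32) in YC and from 6.89 to 13.4 CPM (median 11.8) in OC+SM. The highest treated ovary was below the lowest young ovary (log2 fold change -1.47 ± 0.16 SE, edgeR adjusted p = 2.22e-06). The partner of Gdf9, Bmp15, ran from 8.26 to 13.5 CPM (median 9.68) in YC and from 1.23 to 4.49 CPM (median 3.26) in OC+SM (log2 fold change -1.79 ± 0.24 SE, edgeR adjusted p = 1.56e-05), again without overlap.

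Genes of the egg coat and of the maternal store moved alike. Zp3, whose promoter is shown above, ran from 11.2 to 18.3 CPM (median 15.4) in YC and from 2.95 to 7.48 CPM (median 5.30) in OC+SM (log2 fold change -1.53 ± 0.21 SE, edgeR adjusted p = 3.89e-05). Nlrp14, an oocyte-enriched member of the NLR family, ran from 17.3 to 34.8 CPM (median 26.1) and from 5.32 to 9.19 CPM (median 7.03; log2 fold change -1.84 ± 0.17 SE, edgeR adjusted p = 5.99e-07). Neither gene overlapped between the groups. Padi6 and Khdc3, both parts of the subcortical maternal complex of the egg, changed by -1.64 ± 0.16 and -1.79 ± 0.29, Tcl1 by -1.79 ± 0.17, and Ybx2, a binding protein of stored messenger RNA, by -2.10 ± 0.23 (edgeR adjusted p = 5.10e-07, 0.000249, 3.74e-07 and 1.14e-06). The 2 tested members without a call were Kit (-0.35 ± 0.19) and Gja4 (-0.28 ± 0.18), the receptor for KIT ligand and a connexin. Figla, Oosp2 and Patl2 did not pass the count filter and were not tested. In bulk tissue fewer oocytes and less RNA per oocyte cannot be told apart, and this holds for every cell-type list below. Summed over the list, oocyte genes stood at 313 to 449 CPM in YC and 95 to 190.3 CPM in OC+SM, and at 126 to 183 CPM in the untreated aged OC ovaries. When OC+SM 1, 2 and 3 were left out, 27 of the 36 were called lower.

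Granulosa transcripts were lower as well, though by less. In the granulosa list 13 of 21 tested genes fell and 1 rose (median -0.64), where 10.9% of all genes fell and 11.5% rose. Esr2, the estrogen receptor of granulosa cells, ran from 19.4 to 38.9 CPM (median 25.3) in YC and from 4.67 to 9.94 CPM (median 8.01) in OC+SM (log2 fold change -1.83 ± 0.17 SE, edgeR adjusted p = 5.99e-07). No treated ovary reached the lowest young value. Slc18a2, a vesicular monoamine transporter, changed by -1.63 ± 0.19, Serpine2, a protease inhibitor, by -0.84 ± 0.11, and Ccnd2, the cyclin that drives granulosa proliferation, by -0.67 ± 0.09 (edgeR adjusted p = 1.52e-05, 1.44e-05 and 1.83e-05). The 1 increase was Nr0b1, a nuclear receptor that represses steroidogenic genes (0.69 ± 0.23, edgeR adjusted p = 0.0338). Fshr, the receptor for follicle-stimulating hormone, ran from 2.48 to 8.84 CPM (median 4.27) and from 1.94 to 3.63 CPM (median 2.54), and its groups overlapped (log2 fold change -0.80 ± 0.27 SE, edgeR adjusted p = 0.0351). That call was lost without any one of OC+SM 3, 4, 5 and 6 and YC 3 and 6, and the call of Nr0b1 without any one of OC+SM 4 and 6 and YC 1 and 4. Amh, the hormone of small growing follicles, was left untested, with 0 to 3 counts in each library. Cyp19a1, the aromatase, ran from 2.03 to 14.7 CPM (median 4.48) in YC and from 0.923 to 22 CPM (median 7.59) in OC+SM, a wide spread in each group, and was not called (log2 fold change 0.60 ± 0.72 SE, edgeR adjusted p = 0.607; 95% interval -0.93 to 2.13). It stood at 0.10 without OC+SM 1 and at 1.04 without YC 3.

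The hedgehog pathway, by which granulosa cells address the theca, was lower at its ligands and at its targets. Of 13 tested genes 5 fell and 0 rose (median -0.44), where 10.9% of all genes fell and 11.5% rose. The granulosa-derived ligands Dhh and Ihh changed by -0.89 ± 0.19 and -1.22 ± 0.28 (edgeR adjusted p = 0.00199 and 0.00448). Ptch1, the receptor that hedgehog signals themselves induce, ran from 46.3 to 63.4 CPM (median 55.2) in YC and from 28.1 to 35.6 CPM (median 31.9) in OC+SM, with no overlap (log2 fold change -0.78 ± 0.08 SE, edgeR adjusted p = 5.99e-07). The transcription factors Gli1 and Gli2 changed by -1.07 ± 0.21 and -0.87 ± 0.21 (edgeR adjusted p = 0.000738 and 0.00421). Smo, the signal transducer, stood at -0.09 ± 0.06 and was not called.

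Theca and interstitial genes were called in both directions, and 5 of 16 fell while 2 rose (median -0.33). The share lower was 31.25%, against 10.9% of all genes. The share higher, 12.5%, was near the 11.5% of all genes. Insl3, a hormone made by theca cells, ran from 20.3 to 36.6 CPM (median 24.2) in YC and from 7.50 to 13.9 CPM (median 9.59) in OC+SM, without overlap (log2 fold change -1.39 ± 0.16 SE, edgeR adjusted p = 3.76e-06). The other 4 decreases were Ptch1, Gli1, Gli2 and Acta2, which the hedgehog and smooth muscle lists hold too. The increases were Mgarp, a mitochondrial protein of steroid-making cells (0.66 ± 0.09, edgeR adjusted p = 1.24e-05), and the steroid reductase Srd5a1 (0.66 ± 0.22, edgeR adjusted p = 0.0376). The call of Srd5a1 was lost without any one of OC+SM 1, 4, 5 and 6 and YC 4 and 5. Cyp17a1, the androgen-making enzyme, ran from 39.8 to 383 CPM (median 45.2) in YC and from 5.89 to 68.1 CPM (median 39) in OC+SM. Its groups overlapped and it was not called (log2 fold change -1.64 ± 0.71 SE, edgeR adjusted p = 0.123; 95% interval -3.15 to -0.13). The highest young value was that of YC 3, and without it the change was -0.73.

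**Figure D2:**
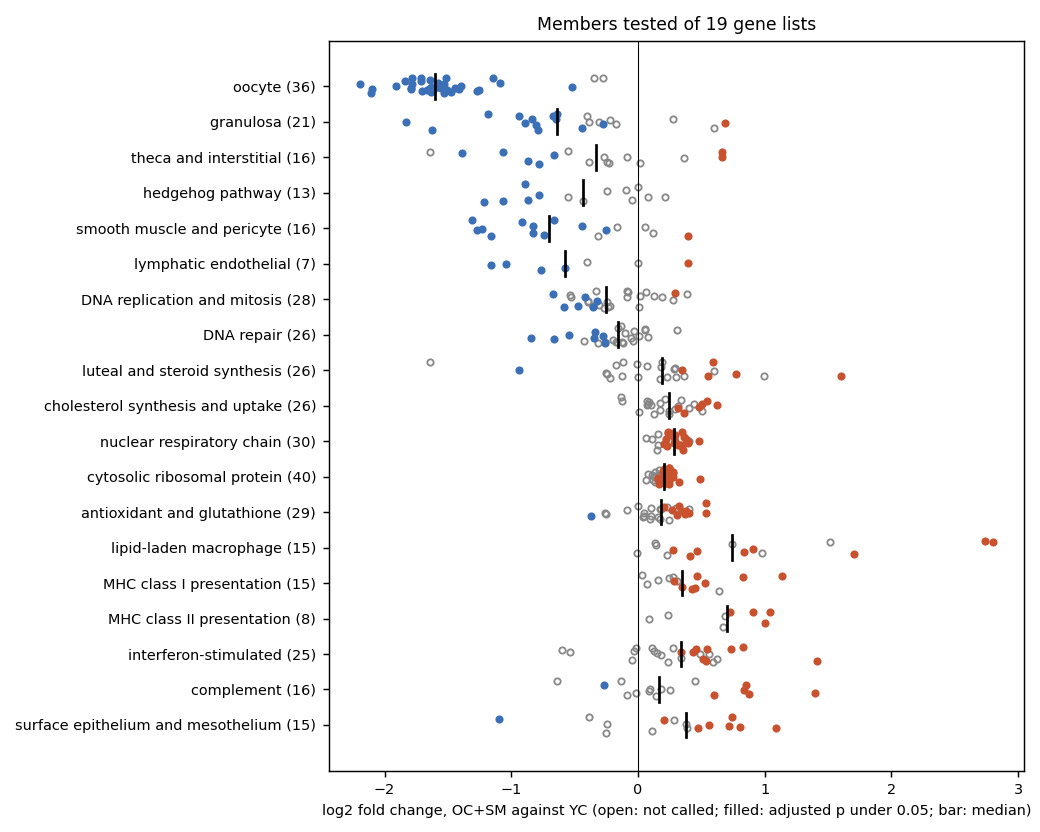
Each point is a tested member of 1 of 19 gene lists (number tested in brackets), placed by its log2 fold change, OC+SM against YC; filled points are called, blue lower and orange higher, open points are not called, and the bar is the list median. The oocyte list sits apart on the left with a median of -1.60, while the respiratory chain and ribosomal lists form narrow groups with medians of 0.28 and 0.20.

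Several enzymes of progesterone synthesis were higher in the treated aged ovaries. Of 26 luteal and steroid genes 5 rose (19.2%) and 1 fell (3.85%), against 11.5% and 10.9% of all genes (list median 0.19). Calls in either direction over all genes were 22.4%. Hsd3b1, which completes progesterone, ran from 3207 to 3997 CPM (median 3627) in YC and from 4976 to 6228 CPM (median 5285) in OC+SM (log2 fold change 0.59 ± 0.07 SE, edgeR adjusted p = 1.51e-06). Cyp11a1, which cleaves the cholesterol side chain, ran from 3560.0 to 5230.4 CPM (median 4661) and from 5951 to 7529.6 CPM (median 6727; log2 fold change 0.55 ± 0.08 SE, edgeR adjusted p = 2.90e-05). Neither gene overlapped between the groups. Tspo, a protein of the outer mitochondrial membrane, rose by 0.77 ± 0.18, Fdxr, which passes electrons to Cyp11a1, by 0.35 ± 0.09, and Hsd3b6, a near relative of Hsd3b1 at a much lower level, by 1.60 ± 0.32 (edgeR adjusted p = 0.00723, 0.00754 and 0.000874). Reads of these relatives may be shared between them. The decrease was Hsd17b1, a granulosa enzyme of estradiol synthesis (-0.94 ± 0.27, edgeR adjusted p = 0.0186). Star, which carries cholesterol into mitochondria, ran from 697 to 1799 CPM (median 1519) in YC and from 1363 to 2447 CPM (median 1669) in OC+SM and was not called (log2 fold change 0.28 ± 0.21 SE, edgeR adjusted p = 0.373; 95% interval -0.16 to 0.72). Lhcgr, the receptor on which hCG acts, ran from 164 to 414 CPM (median 195) and from 62.9 to 257 CPM (median 197) and was not called either (log2 fold change -0.25 ± 0.30 SE, edgeR adjusted p = 0.606; 95% interval -0.88 to 0.39). Without YC 3 the changes of Star and Lhcgr were 0.14 and 0.01, and without OC+SM 6 0.16 and -0.07. The count of luteal and steroid genes called lower was 2 without OC+SM 4.

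Called genes of cholesterol synthesis and uptake were all higher, and those of lipid handling were mixed, where 22.4% of all genes were called. Of 26 genes of cholesterol synthesis and uptake 6 rose and none fell (median 0.24). They included Acat2 (0.48 ± 0.11), Fdps (0.62 ± 0.14) and Fdft1 (0.32 ± 0.08), early enzymes of the pathway, and Msmo1 (0.50 ± 0.15) and Sc5d (0.36 ± 0.12), late ones. The call of Sc5d was lost without any one of OC+SM 1 and 2 and YC 2, 3 and 5, and that of Msmo1 without any one of OC+SM 3 and 4 and YC 6. Among genes of lipid storage and oxidation 7 of 26 rose, including Dgat1 (0.76 ± 0.12, edgeR adjusted p = 0.00013), which makes triglyceride, and Cpt1a (0.29 ± 0.07), the gate of mitochondrial fatty acid oxidation. Fabp3, a fatty acid carrier, fell by 1.52 ± 0.36 on the log2 scale, and its change without YC 3 was -0.99. The count higher in the lipid storage list was 4 without OC+SM 2, and the count lower 2 without OC+SM 3 or OC+SM 5. The efflux and apolipoprotein list split, with 2 of 11 higher and 2 lower. Nr1h3, the liver X receptor alpha, rose by 0.83 ± 0.12 (edgeR adjusted p = 2.61e-05) and Apoe by 0.39 ± 0.12, whereas Apoa1 and Apoa4 changed by -1.41 ± 0.24 and -2.31 ± 0.37 (edgeR adjusted p = 0.000245 and 0.00035). The call of Apoe was lost without any one of OC+SM 6 and YC 1, 4 and 5.

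Contractile transcripts of smooth muscle were lower in OC+SM. Of 16 listed genes of smooth muscle and pericytes 11 fell and 1 rose (median -0.70), against 10.9% and 11.5% of all genes. Myh11, the smooth muscle myosin, ran from 109 to 158 CPM (median 136) in YC and from 45.1 to 65.8 CPM (median 62) in OC+SM (log2 fold change -1.23 ± 0.10 SE, edgeR adjusted p = 1.03e-07), and every treated ovary lay below every young one. Myocd, the coactivator that switches on the contractile program, changed by -1.31 ± 0.17, Lmod1, which nucleates actin filaments, by -1.27 ± 0.11, and Cnn1, calponin, by -0.91 ± 0.14 (edgeR adjusted p = 1.17e-05, 1.44e-07 and 0.000165). The increase was Pdgfrb, a receptor of pericytes and stromal cells (0.40 ± 0.11, edgeR adjusted p = 0.00868). The summed level of the list ran from 1429.7 to 2265 CPM in YC and from 1095 to 1379 CPM in OC+SM.

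Stromal and matrix genes were called in numbers to be read against the 22.4% of all genes called. Of 16 stromal fibroblast genes 4 fell and none rose, led by Ogn, osteoglycin (-0.89 ± 0.09, edgeR adjusted p = 6.11e-07). Of 17 collagen chains 1 fell, Col1a2 (-0.47 ± 0.08, edgeR adjusted p = 0.00018). Its partner chain Col1a1 ran from 260.0 to 367 CPM (median 336) in YC and from 238 to 353 CPM (median 275) in OC+SM and was not called (log2 fold change -0.18 ± 0.11 SE, edgeR adjusted p = 0.253). The count of collagen chains called lower was 2 without OC+SM 3 and 5 without YC 3, and 4 without OC+SM 1, 2 and 3. Among stromal genes the count lower was 2 without YC 2, and the count higher 1 without OC+SM 6. In the matrix remodelling list 2 of 25 rose and 5 fell, the latter 3 without OC+SM 2. The increases were both plasminogen activators: Plau ran from 20.9 to 45.5 CPM (median 42.6) and from 57.9 to 99 CPM (median 84), without overlap (log2 fold change 1.07 ± 0.16 SE, edgeR adjusted p = 0.000166), and Plat rose by 0.55 ± 0.11 (edgeR adjusted p = 0.00137). Adamts2, which trims procollagen, and the microfibril protein Fbn1 changed by -0.72 ± 0.08 and -0.68 ± 0.08 (edgeR adjusted p = 8.53e-07 and 5.78e-06).

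Blood and lymphatic vessel genes were called in both directions, where 22.4% of all genes were called. Of 18 blood endothelial genes 3 rose, the capillary genes Gpihbp1 (1.32 ± 0.24), Plvap (0.76 ± 0.20) and Emcn (0.54 ± 0.09), and Aqp1, a water channel, fell (-0.67 ± 0.13; edgeR adjusted p = 0.000417, 0.00962, 0.000138 and 0.000911). Of 7 lymphatic genes 4 fell, namely Reln (-1.16 ± 0.23), the chemokine Ccl21a (-1.04 ± 0.20), Lyve1 (-0.77 ± 0.20) and Prox1 (-0.58 ± 0.17), which sets lymphatic identity and whose call was lost without YC 3. The count of blood endothelial genes called lower was 2 without OC+SM 2. Pdpn, which stromal and epithelial cells also express, rose by 0.40 ± 0.10.

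Several markers of lipid-laden macrophages were higher in the treated aged ovaries. Of 15 tested genes of this list 8 rose and none fell (median 0.74), against 11.5% of all genes higher and 10.9% lower. Fabp4, a fatty acid binding protein, ran from 3.73 to 8.49 CPM (median 6.06) in YC and from 16.2 to 67 CPM (median 44.8) in OC+SM, so that the lowest treated ovary was above the highest young one (log2 fold change 2.80 ± 0.33 SE, edgeR adjusted p = 3.06e-05). Gpnmb, a lysosomal glycoprotein of foam cells, ran from 2.14 to 15.4 CPM (median 5.81) and from 15.1 to 97.6 CPM (median 32.6); its ranges touched, and OC+SM ovaries spread over a wide range (log2 fold change 2.74 ± 0.55 SE, edgeR adjusted p = 0.00277). The lysosomal genes Atp6v0d2 and Acp5 rose by 1.70 ± 0.42 and 0.91 ± 0.24, and Trem2, a lipid-sensing receptor, by 0.83 ± 0.24 (edgeR adjusted p = 0.00806, 0.00807 and 0.0155). In the general macrophage list 2 of 20 rose (10%) and 1 fell (5%), both below those shares of all genes. The increases were Ctss (0.98 ± 0.25) and Lyz2 (0.96 ± 0.26). Mrc1, a mannose receptor of resident macrophages, was the decrease (-0.51 ± 0.10). Without YC 3, 6 of the 20 were called higher, and the count lower was 2 without OC+SM 3, OC+SM 4 or YC 3. Adgre1, which encodes the F4/80 antigen, ran from 2.74 to 6.82 CPM (median 3.90) in YC and from 3.16 to 4.56 CPM (median 3.69) in OC+SM (log2 fold change -0.18 ± 0.21 SE, edgeR adjusted p = 0.586). Fabp4 also marks adipocytes, and of the 9 adipocyte markers listed only 3 passed the filter. These 3, with Fabp4 among them, stood at 0.08 to 2.80 (median 1.24), and only Fabp4 was called. Summed over the list, with Fabp4, they ran from 14.6 to 50.1 CPM in YC and from 33.4 to 105.6 CPM in OC+SM. Adipoq reached at most 0.351 CPM in any of the 12 ovaries and Lep was at 0. The part of adipocytes in the Fabp4 value was not tested. Without OC+SM 1, 2 and 3, 5 of the 15 were called higher.

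Genes of antigen presentation and of the interferon response were higher where called. In the class I list 8 of 15 rose and none fell (median 0.35), in the class II list 4 of 8 (0.71) and in the interferon-stimulated list 9 of 25 (0.34). Over all genes 11.5% were called higher and 10.9% lower. H2-D1, a classical class I heavy chain, ran from 153 to 200.4 CPM (median 172) in YC and from 254 to 345 CPM (median 307) in OC+SM, without overlap (log2 fold change 0.83 ± 0.10 SE, edgeR adjusted p = 9.22e-06). The immunoproteasome subunits Psmb9 and Psmb10 rose by 0.53 ± 0.12 and 0.47 ± 0.08, and B2m, the light chain, by 0.45 ± 0.14 (edgeR adjusted p = 0.0028, 0.000303 and 0.0252). The call of B2m was lost without any one of OC+SM 3 and 4 and YC 3 and 6. H2-Q7 rose by 1.13 ± 0.22, a value that may carry reads of its near-identical neighbours. The class II chains H2-Aa, H2-Eb1 and H2-Ab1 rose by 1.04 ± 0.23, 0.90 ± 0.22 and 0.73 ± 0.20 (edgeR adjusted p = 0.00442, 0.00861 and 0.0162). Rsad2, with the promoter shown above, ran from 2.38 to 5.99 CPM (median 3.78) in YC and from 6.08 to 13.8 CPM (median 10.2) in OC+SM (log2 fold change 1.41 ± 0.20 SE, edgeR adjusted p = 4.04e-05), and no treated ovary was as low as a young one. Gbp7 rose by 0.54 ± 0.11 (edgeR adjusted p = 0.000887). The counts of the 3 lists without OC+SM 1, 2 and 3 were 5, 2 and 4 higher.

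Among complement genes 5 of 16 rose and 1 fell, where 22.4% of all genes were called. The increases were the central component C3 (1.40 ± 0.23), the C1 proteases C1ra (0.60 ± 0.07) and C1s1 (0.87 ± 0.09), C2 (0.85 ± 0.21) and C4b (0.84 ± 0.25). The C1q chains C1qa, C1qb and C1qc, which macrophages make, stood at 0.25 ± 0.10, 0.15 ± 0.11 and 0.08 ± 0.12 and were not called; C1qa was called without OC+SM 2 or YC 3. In the B and plasma cell list 4 of 8 rose, including the immunoglobulin chains Igkc (1.73 ± 0.47) and Igha. Another of the 4 was Xbp1, which the unfolded protein list below holds too. Derl3, which other secretory cells use too, fell (-1.74 ± 0.19), and the count lower was 2 without YC 5. Trbc2, a T cell receptor chain, rose by 1.42 ± 0.27 as the only call among 9 T and NK cell genes (2 without OC+SM 6), and none of 7 neutrophil and mast cell genes was called. These lymphocyte genes stood at low levels: summed over the T and NK list they ran from 20.3 to 28.6 CPM in YC and from 26 to 33.9 CPM in OC+SM.

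**Figure D3:**
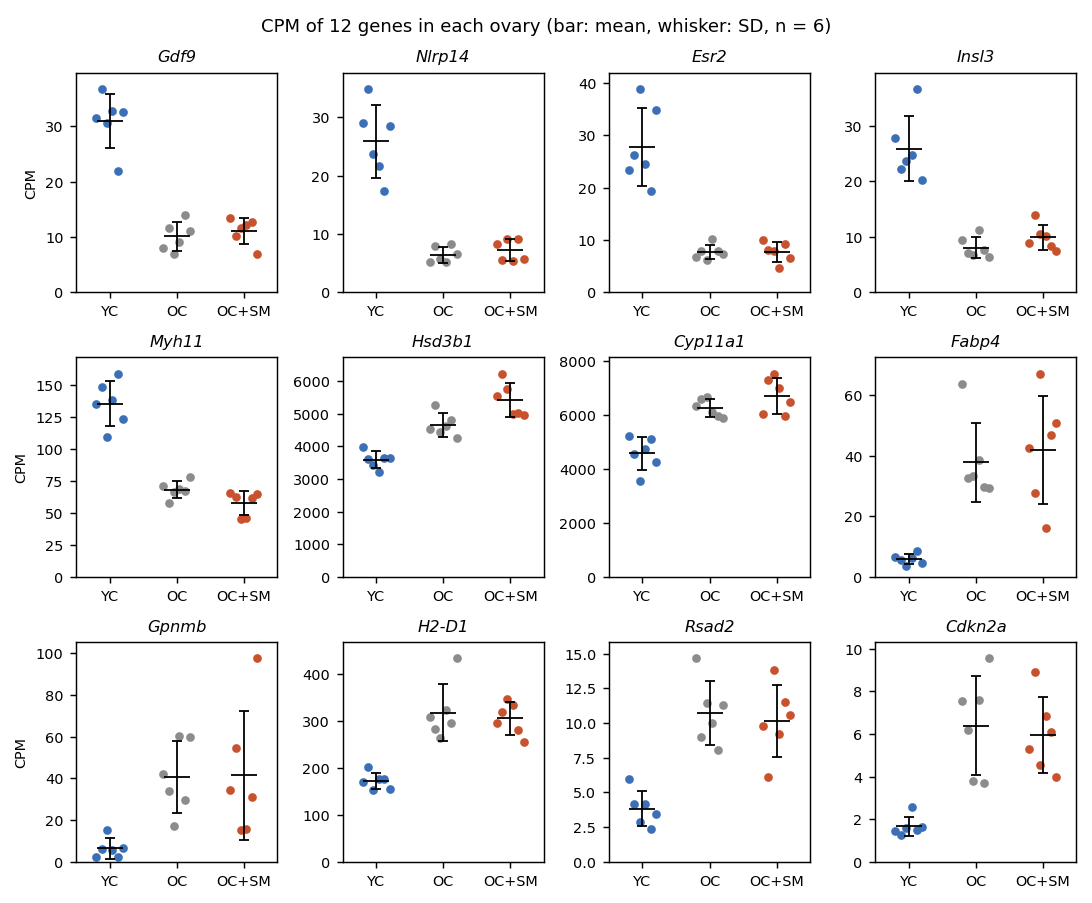
CPM of 12 genes (vertical axes, each from 0) in every ovary of the YC, OC and OC+SM groups, with mean and SD, n = 6. For Gdf9, Nlrp14, Esr2, Insl3 and Myh11 all OC+SM ovaries lie below all YC ovaries, and for Hsd3b1, Cyp11a1, Fabp4, H2-D1, Rsad2 and Cdkn2a all lie above; Gpnmb overlaps.

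Nuclear genes of the respiratory chain rose almost as a set, each by a little. Of 30 genes tested 24 rose and none fell (median 0.28), against 11.5% and 10.9% of all genes. In 20 of the 30 every OC+SM ovary lay above every YC ovary. Such separation, in either direction, occurred in 9.5% of all genes tested. Sdhb of complex II ran from 193 to 215 CPM (median 202) in YC and from 248 to 313 CPM (median 282) in OC+SM (log2 fold change 0.48 ± 0.06 SE, edgeR adjusted p = 1.22e-05). Sdha rose by 0.39 ± 0.06, Uqcrq of complex III by 0.40 ± 0.06, and the ATP synthase gene Atp5c1 by 0.38 ± 0.05 (edgeR adjusted p = 8.14e-05, 4.12e-05 and 2.67e-05). Genes encoded in the mitochondrial genome itself split, with 7 of 13 higher and 3 lower. mt-Cytb and mt-Atp6 rose by 0.35 ± 0.07 and 0.35 ± 0.07, while mt-Nd2, mt-Nd5 and mt-Atp8, the 3 decreases, changed by -0.37 ± 0.11, -0.23 ± 0.06 and -0.20 ± 0.06. The call of mt-Atp8 was lost without any one of OC+SM 6 and YC 2 and 5. Without OC+SM 1, 2 and 3, 14 nuclear genes were called higher, and with the length trend removed 25.

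Cytosolic ribosomal protein genes showed the same narrow rise. Of 40 tested 29 rose and none fell (median 0.20), where 11.5% of all genes rose and 10.9% fell. Rps2, of the small subunit, ran from 137 to 182 CPM (median 162) in YC and from 209.6 to 265 CPM (median 221) in OC+SM (log2 fold change 0.49 ± 0.07 SE, edgeR adjusted p = 2.88e-05), and Rpl32, of the large subunit, from 744 to 911 CPM (median 849.9) and from 1010.0 to 1139 CPM (median 1051; log2 fold change 0.33 ± 0.05 SE, edgeR adjusted p = 0.000181). Neither overlapped. Summed over 89 such genes, ribosomal protein genes took 8.52 ± 0.316% of counts in OC+SM and 7.35 ± 0.342% in YC (SD, n = 6; exact permutation adjusted p = 0.00361). That share is of all counts, without correction for library composition. In corrected CPM the 40 listed genes summed to 33122.5 to 38977 in YC and 40879 to 43914 in OC+SM. Reads of these short genes may be shared with retrotransposed copies. Without OC+SM 1, 2 and 3, 20 were called higher, and with the length trend removed 28. Of 30 mitochondrial ribosomal protein genes 6 rose and none fell, led by Mrpl20 (0.44 ± 0.08, edgeR adjusted p = 0.00038).

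Of 29 antioxidant genes 10 rose and 1 fell, the latter 2 without OC+SM 2 or YC 3. Sod2, the mitochondrial superoxide dismutase, rose by 0.41 ± 0.06, the peroxiredoxin Prdx5 by 0.35 ± 0.06 and thioredoxin Txn1 by 0.54 ± 0.09 (edgeR adjusted p = 9.42e-05, 0.000249 and 0.000125). Txnrd1, the reductase that recharges thioredoxin, was the decrease: it ran from 47.7 to 59.7 CPM (median 53.7) in YC and from 37.1 to 46.4 CPM (median 40.1) in OC+SM, without overlap (log2 fold change -0.37 ± 0.07 SE, edgeR adjusted p = 0.000562). Nfe2l2, the regulator of many of these genes, stood at 0.00 ± 0.06. In the unfolded protein list 6 of 26 rose and 2 fell, where 22.4% of all genes were called. The increases included Xbp1 (0.70 ± 0.09), its target Dnajb9 (0.77 ± 0.11) and the degradation genes Herpud1 (0.62 ± 0.10) and Edem1 (0.52 ± 0.09). The decreases were the disulfide isomerases Pdia3 (-0.22 ± 0.08) and Pdia4 (-0.46 ± 0.13), and the chaperone Hspa5 was not called (0.26 ± 0.11). The count lower in the unfolded protein list was 1 without OC+SM 1, OC+SM 2, OC+SM 3, OC+SM 5, YC 2, YC 4 or YC 6 and 5 without OC+SM 6. The call of Pdia3 was lost without any one of OC+SM 1, 2, 3 and 5 and YC 2, 4 and 6, and Hspa5 was called without OC+SM 5.

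Called genes of DNA replication and repair were lower, apart from Pcna, where 22.4% of all genes were called. In the replication and mitosis list 6 of 28 fell, among them the helicase subunit Mcm7 (-0.47 ± 0.08) and the cyclins Ccnd2 (-0.67 ± 0.09) and Ccne2 (-0.59 ± 0.12), and 1 rose, the polymerase clamp Pcna, which ran from 43.8 to 58.7 CPM (median 56.8) in YC and from 61.2 to 71.3 CPM (median 66.4) in OC+SM (log2 fold change 0.29 ± 0.07 SE, edgeR adjusted p = 0.00382). Mitotic genes such as Mki67 (-0.39 ± 0.16) and Cdk1 (0.06 ± 0.18) were not called, although Mki67 was called without OC+SM 1. In the replication list the count lower was 11 without OC+SM 1, and the count higher 2 without OC+SM 6. Of 26 repair genes 7 fell and none rose, led by Brca2 (-0.85 ± 0.12, edgeR adjusted p = 2.78e-05) and the ligase Lig1 (-0.55 ± 0.09, edgeR adjusted p = 0.000109). Leaving out OC+SM 1, 2 and 3 gave 2 repair genes called lower. Among inhibitors of the cell cycle and senescence genes 3 of 22 rose (13.6%) and 2 fell (9.09%), near the 11.5% and 10.9% of all genes. The count higher was 5 without OC+SM 6. Cdkn2a, which encodes p16INK4a and p19ARF and accumulates in aged tissue, ran from 1.26 to 2.56 CPM (median 1.54) in YC and from 4.00 to 8.90 CPM (median 5.70) in OC+SM (log2 fold change 1.83 ± 0.26 SE, edgeR adjusted p = 2.34e-05), without overlap. Trp53 fell by 0.48 ± 0.13 on the log2 scale, and Cdkn1a, the p53 target p21, stood at -0.30 ± 0.20 and was not called.

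The signalling lists are given beside the 22.4% of all genes called. Of 31 genes of the TGF-beta, activin and BMP pathways 6 fell and none rose (1 without OC+SM 4 or YC 2), led by Bmpr1b (-1.44 ± 0.27, edgeR adjusted p = 0.00107), a receptor through which BMP15 signals in granulosa cells. In the Wnt list 3 of 32 rose, including the ligands Wnt4 (0.67 ± 0.17) and Wnt5a (0.40 ± 0.09), and 6 fell, including the transcription factors Tcf7l1 (-0.41 ± 0.08) and Tcf7l2 (-0.33 ± 0.07). In the PI3K and insulin-like growth factor list 4 of 31 rose and 7 fell, the former 1 without OC+SM 1 and 2 without OC+SM 3, YC 2, YC 5 or YC 6. Igf1r, the receptor, ran from 283 to 344 CPM (median 307) in YC and from 196 to 259 CPM (median 225) in OC+SM, without overlap (log2 fold change -0.45 ± 0.07 SE, edgeR adjusted p = 9.75e-05), and Foxo1, a factor that granulosa cells express, changed by -0.80 ± 0.13 (edgeR adjusted p = 0.000324). The retinoid list split, 4 of 16 higher and 2 lower. Aldh1a2, which makes retinoic acid, and Cyp26b1, which degrades it, rose by 1.09 ± 0.16 and 1.66 ± 0.22, while Crabp2, which binds it, and Stra6, which takes up retinol, changed by -1.82 ± 0.21 and -0.59 ± 0.15 (edgeR adjusted p = 0.00016, 2.78e-05, 2.15e-06 and 0.0066). Immediate early genes gave 1 increase, Fosl2 (0.47 ± 0.08), and 3 decreases of 22, including Egr1 (-0.75 ± 0.21, or -0.49 without YC 3). The clock list gave 1 increase, Arntl (0.48 ± 0.16), and 1 decrease, Ciart (-0.79 ± 0.20), of 19, and the call of Arntl was lost without any one of OC+SM 1, 2, 3 and 6 and YC 2, 3, 5 and 6. The count of clock genes called lower was 2 without OC+SM 6.

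Genes of ovulation are given beside the same 22.4%. Of 21 tested 1 rose and 3 fell, the former 2 without OC+SM 6 or YC 3. Adcyap1, the neuropeptide PACAP, ran from 0.320 to 6.88 CPM (median 3.65) in YC and from 20.5 to 85.4 CPM (median 34.1) in OC+SM, the widest fold among genes named by the rule (log2 fold change 3.30 ± 0.45 SE, edgeR adjusted p = 0.000125). Rgs2, a brake on G protein signals, ran from 449 to 547 CPM (median 479) and from 193 to 273 CPM (median 242; log2 fold change -1.03 ± 0.08 SE, edgeR adjusted p = 7.59e-09), and Ptges, which makes prostaglandin E, changed by -0.83 ± 0.10. The ranges of Adcyap1 and of Rgs2 did not overlap. Ptgs2, the inducible cyclooxygenase, and Tnfaip6, of the cumulus matrix, stood at 0.02 ± 0.54 and 0.15 ± 0.42 with wide errors, and Pgr, the progesterone receptor, at -0.26 ± 0.30, or -0.56 without OC+SM 1.

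The 24 genes with the largest changes were taken as the 12 in each direction with a group mean of at least 5 CPM, separate ranges, and a call that held without any one of the 12 libraries. From 690 higher and 570 lower genes that met those conditions, the higher ones were Adcyap1, Fabp4, Mal, Sectm1a, Lix1, Il33, Rpgrip1, Adh7, Cdkn2a, Tmem178, Arhgap15 and Cyp26b1. Sectm1a ran from 2.45 to 4.73 CPM (median 3.18) in YC and 11.3 to 16.1 CPM (median 14.8) in OC+SM (log2 fold change 2.06 ± 0.14 SE, edgeR adjusted p = 2.14e-09). Mal, a lipid raft protein, ran from 2.13 to 4.46 CPM (median 3.77) and from 12.1 to 27 CPM (median 15.6; log2 fold change 2.23 ± 0.22 SE, edgeR adjusted p = 8.53e-07), and Tmem178 from 22.3 to 71.4 CPM (median 37.4) and from 73 to 188 CPM (median 143; log2 fold change 1.80 ± 0.26 SE, edgeR adjusted p = 0.000257). Il33, an alarmin cytokine of stromal and endothelial cells, rose by 1.93 ± 0.22, and Adh7, an alcohol dehydrogenase that also acts on retinol, by 1.88 ± 0.33. In Rpgrip1 the ranges only just parted, 0.518 to 12.7 CPM (median 6.02) in YC and 12.7 to 29.9 CPM (median 22.1) in OC+SM (log2 fold change 1.93 ± 0.51 SE, edgeR adjusted p = 0.0137).

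The 12 lower genes were Car14, Apoa4, Ybx2, Ccno, Slc38a5, Nlrp14, Esr2, Oas1e, Cnmd, Crabp2, Nnat and Khdc3. Car14, a membrane carbonic anhydrase, ran from 10.3 to 36.4 CPM (median 19.2) in YC and from 0.647 to 6.09 CPM (median 2.52) in OC+SM (log2 fold change -2.83 ± 0.43 SE, edgeR adjusted p = 0.000352). Cnmd, chondromodulin, an inhibitor of vessel growth, ran from 36.4 to 69 CPM (median 43.8) and from 6.47 to 20.2 CPM (median 14; log2 fold change -1.83 ± 0.29 SE, edgeR adjusted p = 0.000413). Slc38a5, an amino acid transporter, changed by -1.86 ± 0.30, and the imprinted gene Nnat by -1.80 ± 0.23 (edgeR adjusted p = 0.000267 and 4.34e-05). Oas1e, of the oligoadenylate synthetase family, changed by -1.83 ± 0.23, opposite to the called interferon-stimulated genes above; its relative Oas1d is a member of the oocyte list (-1.71 ± 0.25), and reads of the family may be shared. Car14, Cnmd and Nnat belong to none of the lists.

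**Figure D4:**
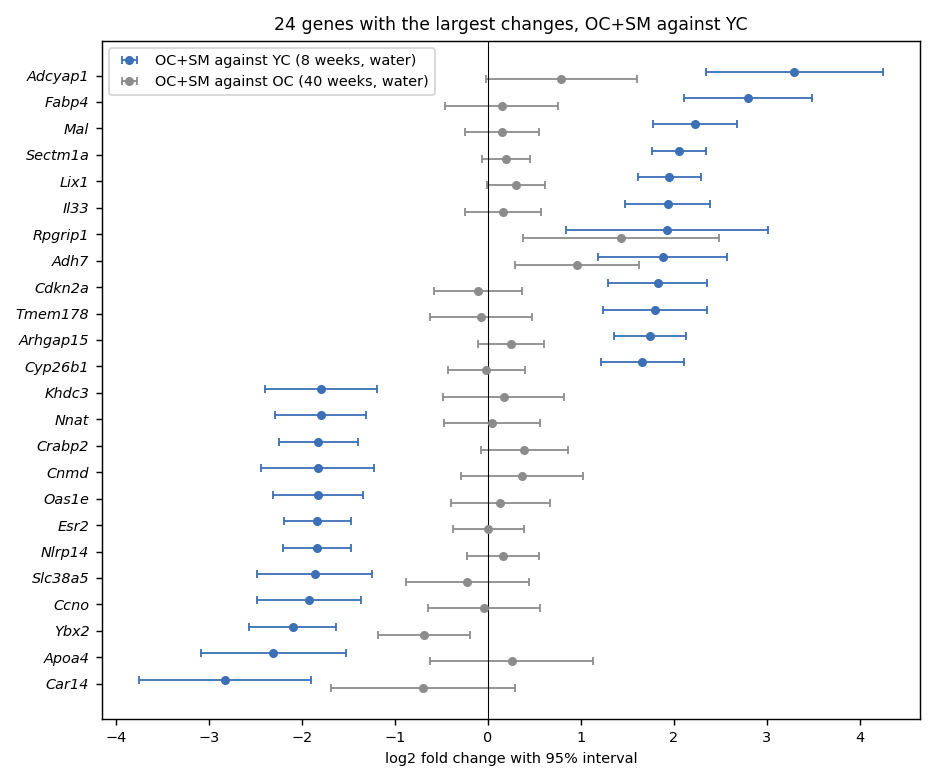
Log2 fold change with its 95% interval of the 24 leading genes, OC+SM against YC (blue) and OC+SM against OC (grey). The genes were chosen for large called changes against YC, so all blue intervals exclude 0 by that choice. The contrast against OC had no part in the choice. Its grey values lie near 0 for most genes, with intervals that exclude 0 for Rpgrip1, Adh7 and Ybx2.

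Set against aged ovaries given water, fewer genes were called. Against OC, 176 of 16959 genes (1.04%) were called in OC+SM, 93 higher (0.548%) and 83 lower (0.489%), and 2861 had an unadjusted p under 0.05. In OC against YC 1912 genes (11.3%) were called. The OC+SM, OC and YC libraries each enter 2 of the 3 comparisons, which are therefore not independent. That count of 176 turned on single libraries: it was 60, 105 and 32 without OC+SM 1, 2 and 3 in turn, 593 and 318 without OC+SM 4 and 5, 380 without YC 3, and 10 without OC+SM 1 to 3 together; no OC library was left out. For Gdf9 the OC ovaries ran from 6.97 to 14 CPM (median 9.99), and OC+SM against OC stood at 0.14 (95% interval -0.21 to 0.49). For Bmp15 and Zp3 the same contrast stood at 0.10 (95% interval -0.43 to 0.63) and 0.35 (95% interval -0.13 to 0.83), for Esr2 at 0.01 (95% interval -0.38 to 0.39) and for Insl3 at 0.29 (95% interval -0.06 to 0.64). For Cdkn2a, Fabp4 and H2-D1 it stood at -0.11 (95% interval -0.58 to 0.36), 0.15 (95% interval -0.46 to 0.76) and -0.06 (95% interval -0.27 to 0.15). In each of these 8 genes both bounds of the interval were smaller in size than the gene's change against YC. These 8 were taken from the genes described above as changed against YC. The error of that change is left out here, and the OC+SM libraries enter both contrasts. None of the 36 oocyte, 21 granulosa, 15 lipid-laden macrophage, 15 class I or 25 interferon-stimulated genes tested was called in OC+SM against OC. At the 1.04% of all genes called, lists of this size would hold few calls or none, so their absence says little about these lists.

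Of the 24 leading genes, 3 had 95% intervals against OC that excluded 0, without a call after adjustment. Ybx2 stood at -0.68 (95% interval -1.18 to -0.19) with edgeR adjusted p = 0.136, Adh7 at 0.96 (95% interval 0.30 to 1.63) with 0.131 and Rpgrip1 at 1.43 (95% interval 0.38 to 2.49) with 0.153. Adh7 ran from 14.6 to 24 CPM (median 20.8) in OC, between its YC and OC+SM medians. Hsd3b1 and Plau were ordered likewise, with OC ovaries at 4244 to 5279.8 CPM (median 4585) and 52.5 to 72.3 CPM (median 55.1). Against OC they stood at 0.22 (95% interval 0.08 to 0.36) and 0.49 (95% interval 0.16 to 0.82), not called (edgeR adjusted p = 0.089 and 0.121).

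Ribosomal protein genes gave 0 calls of 40 in OC against YC (background 5.25% higher and 6.03% lower) and 3 in OC+SM against OC, namely Rps2 (0.33 ± 0.07), Rpl32 (0.25 ± 0.05) and Rpl5 (0.25 ± 0.06). Their list medians were 0.07 in OC against YC, 0.11 in OC+SM against OC and 0.20 in OC+SM against YC. For the respiratory chain the medians were 0.17, 0.09 and 0.28, with 11, 1 (Uqcrc2) and 24 genes higher. The OC ovaries had summed ribosomal protein shares of 7.07% to 7.87% of all counts against 7.93% to 8.82% in OC+SM, without overlap. All counts include the most abundant gene and mitochondrial ribosomal RNA. In CPM, corrected for library composition, the 40 listed genes did overlap, summing to 36594 to 41463 in OC and 40879 to 43914 in OC+SM. The part of library composition in the shares was not tested.

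In 129 genes OC+SM was called against YC and against OC at once, 71 higher than both and 58 lower than both; no gene lay between the groups with both calls. The OC+SM libraries enter both contrasts. The 10 with the smallest larger p were Akr1b3, Surf2, Oat, Rpl37rt, Mrps36 and Timm23, higher, and Lcor, Cdc42bpb, Cog1 and Dync1h1, lower. Akr1b3, aldose reductase, ran from 116 to 125 CPM (median 118) in YC, from 111 to 120.3 CPM (median 118) in OC and from 137 to 181 CPM (median 155) in OC+SM. The YC and OC ovaries lay within the same narrow range and every treated ovary lay above them (log2 fold change 0.40 ± 0.06 SE, edgeR adjusted p = 8.49e-05; against OC 0.43 ± 0.06, edgeR adjusted p = 0.0032). Oat, a mitochondrial enzyme of ornithine metabolism, ran from 50.8 to 71.6 CPM (median 67.5), 64.9 to 77.4 CPM (median 68.4) and 87.6 to 108 CPM (median 94) in the same order of groups, with the treated ovaries again apart (log2 fold change 0.55 ± 0.07 SE, edgeR adjusted p = 1.93e-05). Timm23, of the mitochondrial import channel, and Mrps36 rose by 0.36 ± 0.07 and 0.32 ± 0.08. Rpl37rt is a retrotransposed copy of Rpl37 and its value (0.62 ± 0.09) may carry reads of Rpl37.

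Lcor, a corepressor of nuclear receptors, ran from 42.1 to 51.8 CPM (median 47.1) in YC, 47 to 54.9 CPM (median 49.4) in OC and 35.6 to 41.8 CPM (median 37.7) in OC+SM (log2 fold change -0.30 ± 0.07 SE, edgeR adjusted p = 0.002; against OC -0.40 ± 0.06, edgeR adjusted p = 0.00966). Its treated ovaries all lay below the lowest control ovary of either age. Dync1h1, the dynein heavy chain, changed by -0.37 ± 0.06 and Cog1, of a Golgi complex, by -0.66 ± 0.16. Txnrd1, Igf1r and Pcna, described above, were also called against OC, at -0.36 ± 0.07, -0.32 ± 0.07 and 0.33 ± 0.07 (edgeR adjusted p = 0.0174, 0.0273 and 0.0242). Genes called in OC+SM against OC had median lengths of 1168 bases where higher and 3612 bases where lower, and the treated libraries were the deepest; the part of either was not tested.

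In 17 genes age and Samul-tang were called in opposite directions, OC against YC and OC+SM against OC. The OC ovaries enter both of those calls, so OC+SM against YC is given as the direct measure. Runx2, a transcription factor of the luteinizing follicle, ran from 140.1 to 166 CPM (median 149) in YC, 168 to 227 CPM (median 208) in OC and 104 to 173 CPM (median 117) in OC+SM, where 4 of the treated ovaries lay below every young one. OC+SM against YC stood at -0.25 (95% interval -0.46 to -0.04; edgeR adjusted p = 0.0756) and against OC at -0.69 ± 0.10 (edgeR adjusted p = 0.00406). Rora, a nuclear receptor, ran from 165 to 232 CPM (median 198), 206 to 282 CPM (median 238) and 152 to 207 CPM (median 189.8), with -0.09 (-0.27 to 0.09) against YC. Aebp1, a matrix protein, ran from 315 to 405 CPM (median 325), 399 to 545 CPM (median 496) and 309.7 to 431 CPM (median 373), with 0.14 (-0.04 to 0.31) against YC. Both overlapped between OC+SM and YC.

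The remaining genes named from those 17 were Ptpro, Ubr2, Fars2, Plxnd1, Cpeb4, Plod2 and Aplp2. Ptpro, a receptor phosphatase, stood at a low level, 0.620 to 1.05 CPM (median 0.914) in YC, 0.0878 to 0.318 CPM (median 0.250) in OC and 0.481 to 1.52 CPM (median 0.893) in OC+SM, with 0.05 (-0.64 to 0.75) against YC. Plod2, a lysyl hydroxylase of collagen and like Ptpro lower in OC than in YC, stood at 0.05 (-0.09 to 0.18). Cpeb4, Plxnd1 and Aplp2 stood at 0.01 (-0.14 to 0.16), -0.02 (-0.19 to 0.16) and -0.12 (-0.37 to 0.13) against YC. For Ubr2 and Fars2 the intervals against YC lay just below 0, -0.27 to -0.01 and -0.34 to -0.02, as for Runx2. Against YC, Runx2 and Ubr2 were called without OC+SM 4, and Fars2 without YC 4. Intervals that include 0 do not show that treated and young ovaries were alike in these genes.

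**Figure D5:**
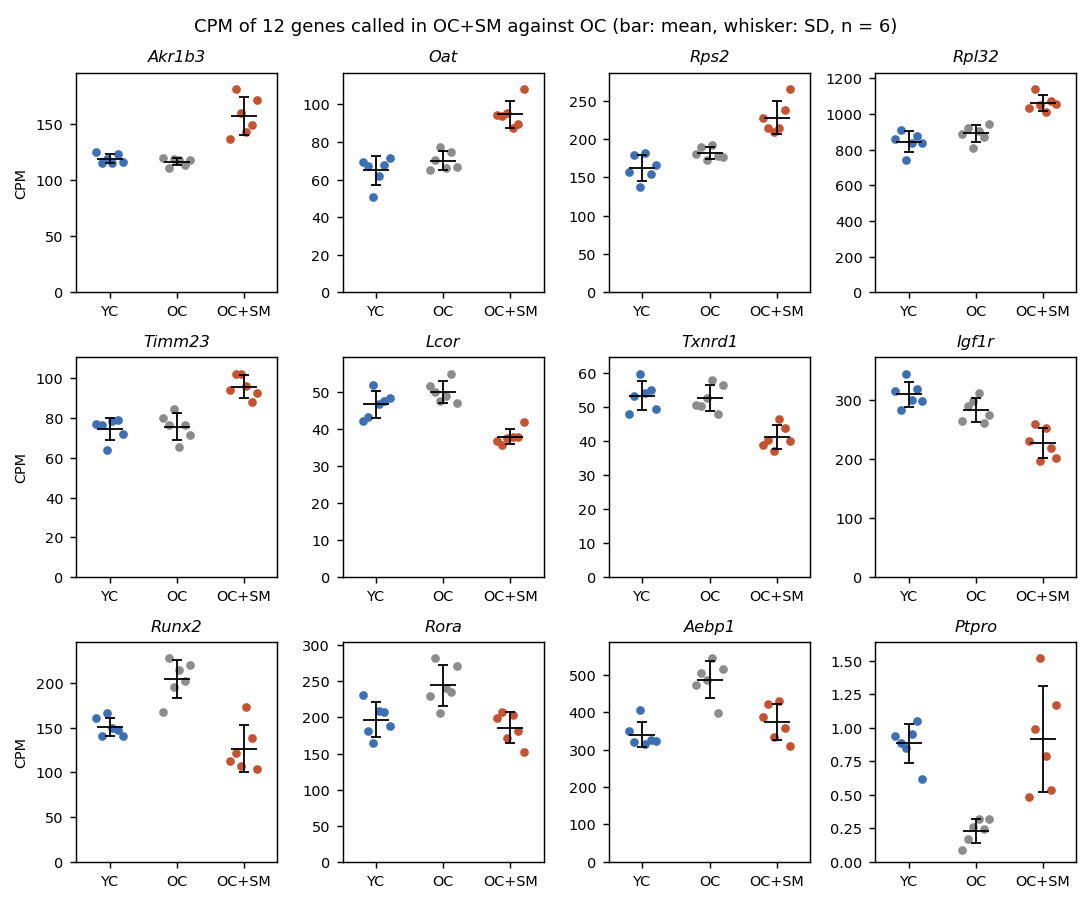
CPM of 12 genes called in OC+SM against OC (vertical axes, each from 0) in every ovary of the YC, OC and OC+SM groups, with mean and SD, n = 6. In Akr1b3, Oat, Rps2, Rpl32, Timm23, Lcor, Txnrd1 and Igf1r every treated ovary stands apart from both control groups; in Runx2, Rora and Aebp1 the OC mean is the highest, and in Ptpro the lowest.

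Markers of tissue next to the ovary were read alongside. Of 15 surface epithelium and mesothelium genes 7 rose and 1 fell (median 0.38), against 11.5% and 10.9% of all genes. Aldh1a2, Krt19 (0.74 ± 0.19) and Lrrn4 (0.80 ± 0.19) were among the increases, and Msln (-1.10 ± 0.25) was the decrease. The count higher was 4 without OC+SM 6 or YC 3, and the count lower 2 without OC+SM 6. Their summed level ran from 183 to 236 CPM in YC, 254 to 292 CPM in OC and 287 to 358 CPM in OC+SM, and the part of this tissue in the retinoid and complement results was not tested. Of 8 oviduct markers 3 passed the filter and none was called, with Foxj1 at most 0.513 CPM in the 12 ovaries. Of 6 erythrocyte genes 1 fell, Bpgm (-0.46 ± 0.10), and the list sum ran from 681 to 1427 CPM in YC and from 399 to 1231 CPM in OC+SM. Oocyte and steroid genes were present in all 12 libraries, as the levels of Gdf9 and Cyp11a1 above show.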

How the data were processed

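Ovarian RNA of 18 mice was sequenced from 3′ ends (QuantSeq kit, per the labels' protocols). Per the submitters' processing notes, FastQC 1.9, STAR 2.7.9a, RSEM 1.3.3 and GRCm39 were used. The authors deposited RSEM expected counts and TPM per gene, per the file headers. TPM divides by gene length, although 3′ tags do not grow with it.

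Expected counts were rounded. Libraries held 9049175 to 20354213 counts. Genes were filtered (filterByExpr, minimum count 10), scaled (TMM factors 0.937 to 1.07) and tested with edgeR 4.0.16 (R 4.3.3), quasi-likelihood, 3 group means over 18 libraries, Benjamini-Hochberg adjustment over 16959 genes. On simulated data 91 of 100 genes at a log2 change of 1 and 50 of 100 at 0.5 were recovered over 16675 genes, with 7 false calls. Library measures were compared by exact permutation over 924 regroupings. Alternatives used DESeq2 1.42.0, limma 3.58.1, other filters, thinned counts, a gene length trend, the replicate number and left-out libraries.

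The comparison and 43 gene lists were chosen with earlier results of these data known. Named genes were, by rule, the 12 largest changes each way among called genes with a mean of at least 5 CPM, without overlap and called without any one of the 12 libraries; up to 4 members per list by smallest p among those called without any one of the 12 libraries, overlapping or not; a panel of 16 genes; and up to 10 genes from each of the sets called against both controls or in opposite directions. Predicted and unnamed genes were counted only: 50 of 690 higher, 40 of 570 lower, 25 of 129 and 3 of 17. Promoters came from RefSeq, whose build differs from that of the files; they were matched by symbol. A few list members are not reported here.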

Additional observations from a re-analysis of the deposited data

Results flagged for a closer look

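Within groups of 6 ovaries, 45 of 414 sets of values had 1 ovary standing far from the other 5 (Dixon's gap over range above 0.625); chance gives about 5% of groups. YC 3 was that ovary in 23 of them and OC+SM 6 in 11, the 2 libraries least correlated with their groups. YC 3 stood apart in Acta2 (363 CPM), Aqp1 (29.8 CPM), C2 (38.7 CPM), C4b (2.66 CPM), Ccl21a (75.1 CPM), Ciart (3.09 CPM), Cyp17a1 (383 CPM), Egr1 (102 CPM), Fabp3 (70.7 CPM), Fbn1 (46.3 CPM), Fdxr (203 CPM), Fosl2 (338 CPM), Fshr (8.84 CPM), Gpnmb (15.4 CPM), Lhcgr (414 CPM), Lyz2 (201 CPM), Mgarp (463 CPM), Myocd (24.8 CPM), Nnat (45.1 CPM), Plat (16.5 CPM), Srd5a1 (11.1 CPM), Tspo (34.8 CPM) and Txn1 (195 CPM). OC+SM 6 stood apart in Adcyap1 (85.4 CPM), C2 (20.6 CPM), C3 (73.1 CPM), C4b (18.6 CPM), Ctss (116 CPM), Gbp2 (57.3 CPM), Gja4 (6.64 CPM), Krt19 (23.6 CPM), Lcor (41.8 CPM), Lyz2 (326 CPM) and Wnt4 (325 CPM). Cyp17a1, Lhcgr and Fshr, receptors and enzymes of the follicle, had their highest young value in YC 3.

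YC 5, YC 6 and OC+SM 5 stood apart in none of these values, and other ovaries in 1 or 2. These were Surf2 (33.8 CPM) in YC 1; Ccno (10.1 CPM) and Smo (71.9 CPM) in YC 2; Cdkn2a (2.56 CPM) and Gli2 (6.07 CPM) in YC 4 among the young ovaries. Among the treated ovaries they were Fdft1 (110.4 CPM) and Pgr (3.79 CPM) in OC+SM 1, Uqcrq (370.5 CPM) in OC+SM 2, Amh (0.138 CPM) in OC+SM 3, Myocd (4.38 CPM) in OC+SM 4. The summed ribosomal protein share of OC+SM 4, 7.93%, was the lowest of its group.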

How the results depend on the processing

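OC+SM against YC gave 1851 to 4120 called genes over 25 alternatives against 3795 as reported, 3090 to 3920 when 1 library was left out (1589 to 1956 higher, 1485 to 1986 lower, 521 to 650 at least 2-fold). Without OC+SM 1, 2 and 3, chosen after seeing the data, it gave 1851 (983 higher, 868 lower), with fewer samples. With limma on log2(TPM + 1), 199 genes passed 2-fold against 585, a scale that understates changes of low genes. The higher share of calls, 51.5%, became 65.6% with the length trend removed, and 41.2% and 40.4% on log2(TPM + 0.1) and log2(TPM + 1). The TPM values were used without correction for library composition.

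OC+SM against OC gave 176 genes as reported, 663 with DESeq2, 45 with only the 12 libraries compared in the dispersion fit, 483 without YC 3 and OC+SM 6, 10 without OC+SM 1, 2 and 3, and 32 to 593 leaving out 1 OC+SM or YC library. OC against YC gave 1505 to 2203 over the same 12 settings. No OC library was left out. The cause was not tested.

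The difference in the share of the most abundant gene was -3.78 percentage points without YC 3 and OC+SM 6, past the threshold no longer (-3.81 as reported). The difference in genes detected passed it after thinning (-789 against -220.2). Of 5520 values of named genes, 5331 kept direction and side of the threshold, 165 lost the call, 24 gained one and 0 reversed a call. Of 1075 list medians 18 moved.

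The labels do not say that replicate numbers pair the mice. Deviations of same-numbered OC+SM and YC ovaries correlated at -0.101 to 0.0722, and 1 of 6 correlated best with its own number. Same-numbered OC+SM and OC ovaries correlated at -0.0177 to 0.0449, and none correlated best with its own number. Values near 0 over so few ovaries cannot show that mice were not paired. The replicate block gave 3535 called genes. Depth limits the low genes: Amh had at most 3 counts in a library.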
